A study of Rattus norvegicus with 9 samples.

Results

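The conjugation enzymes described here are the glutathione S-transferases (GST), the microsomal glutathione S-transferases (MGST), the UDP-glucuronosyltransferases (UGT) and the cytosolic sulfotransferases (SULT). Members were taken by name, as genes whose only symbol in the array's annotation begins with Gst and a class letter, or with Mgst, Ugt or Sult and a digit. That gave 38 of 14497 named genes, of which 17 were GST, 2 MGST, 11 SULT and 8 UGT genes. Another 8 probes list several genes of these families at once, among them the 1 probe for the UGT1A genes with 8 symbols, and no gene is named from them.

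Lung RNA came from 3 Wistar rats with metabolic syndrome (MetS) and 4 Wistar control rats. For 24 weeks after weaning the MetS rats drank only 30% sucrose solution, whereas the controls drank water, and both groups ate standard chow and were fasted before they were killed. Only the MetS rats are labelled as male, and the sex of the controls is not stated, so sex and diet cannot be told apart here. Of the 7 animals, MetS 1 and control 1 had 2 arrays each, which were averaged. The 9 one-colour arrays gave log2 expression values for 28826 transcript clusters, called probes here, with array medians between 7.64 and 7.69. Whole lung was measured, in which fewer cells of a type and less RNA per cell cannot be told apart. The number of animals limits the precision of every value.

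These families carry out the conjugation phase of detoxification, in which a polar group is joined to a drug, a pollutant, a hormone or a product of lipid oxidation so that it can be exported and excreted. GST and MGST enzymes join glutathione to reactive electrophiles, UGT enzymes join a sugar acid from UDP-glucuronate, and SULT enzymes join sulfate from the donor PAPS. Liver and gut are the main sites of UGT and SULT activity, and in lung the airway secretory cells are a known site of GST expression.

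The families are given side by side, and the difference between them was not tested. Of the 19 GST and MGST genes, 14 stood higher and 5 lower in MetS, and their median difference was 0.057 on the log2 scale (MetS minus control). Of the 19 SULT and UGT genes, 2 stood higher and 17 lower, with a median of -0.38, against 0.012 over all probes. The direction depended on the processing in both sets. When the SD over all probes was added to the fit as a term for each animal, the GST and MGST genes were 7 higher and 12 lower with a median of -0.089, and the SULT and UGT genes were 10 higher and 9 lower with a median of 0.017. Without controls 2 and 3, which had the lowest such SDs, the medians were -0.039 (9 higher, 10 lower) for GST and MGST and -0.17 (6 higher, 13 lower) for SULT and UGT. After quantile normalizing the arrays again they were 0.024 (13 higher, 6 lower) and -0.14 (7 higher, 12 lower). The widest differences were those of Sult1c2, Sult2a2 and Sult2a1, whose means were 5.95-fold, 4.91-fold and 2.79-fold lower in MetS. No gene of the array passed the test over all probes (limma, Benjamini-Hochberg adjusted p under 0.05, 0 of 28826 probes, 0%), and the smallest adjusted p among the members was 0.324. All members are therefore described by their values and by an unadjusted p, which 2 members passed upward and 10 downward at 0.05.

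These counts are read against the whole array. The 2 higher members are 5.26% of 38, where 3.82% of all probes were higher at that threshold, and the 10 lower members are 26.3%, where 9.91% of all probes were lower. The MetS and control values did not overlap for 1 higher member, or 2.63%, against 4.88% of all probes, and for 4 lower members, or 10.5%, against 6.84%. The count of 10 lower members depended on single animals. Leaving out MetS animal 1 gave 6, leaving out MetS animal 2 gave 4, and leaving out control 2 or control 3 gave 5. The 2 higher members became 0 when MetS animal 1, control 1 or control 3 was dropped, and 1 when MetS animal 2 or 3 was. The 4 lower members with no overlap became 10 when MetS animal 3 was dropped and 12 when control 4 was. The 1 higher became 2 when MetS animal 1, MetS animal 2, control 2 or control 4 was dropped. Dropping an animal can only hold or raise a count without overlap. In 7 of the 10 lower members control 4 was the only control that overlapped the MetS values. Shares over all probes are not given for these fits with 1 animal left out, so their counts are no result about the members.

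**Figure D1:**
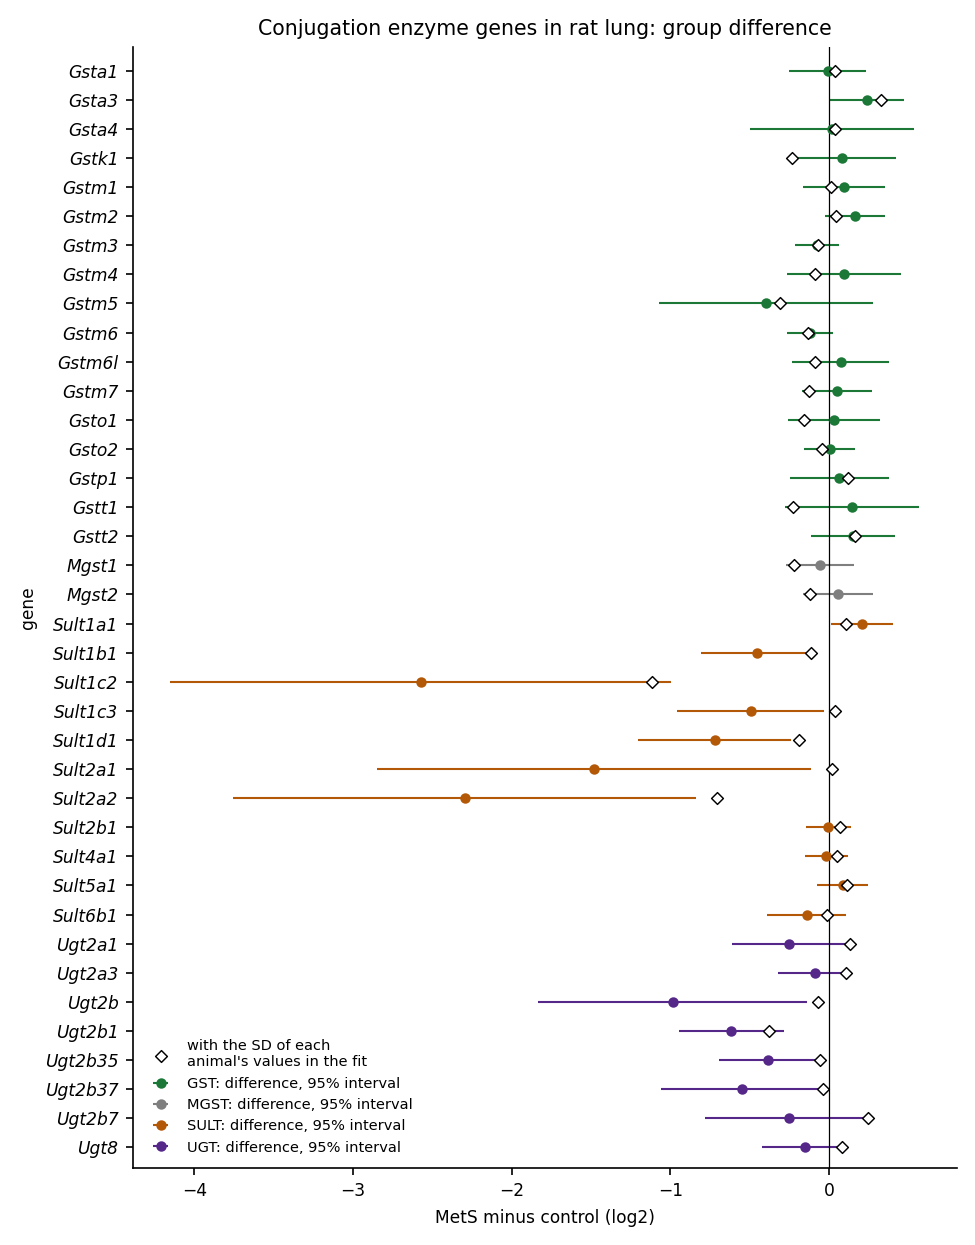
Difference between MetS and control lungs for each of the 38 genes, in log2 units on the horizontal axis, with filled points for the fitted difference, bars for its 95% interval and open diamonds for the difference when the SD of each animal's values enters the fit. The GST and MGST points lie between -0.40 and 0.24, whereas the points of Sult1c2, Sult2a2 and Sult2a1 lie at -2.57, -2.30 and -1.48, and the open diamonds of these 3 lie at -1.11, -0.70 and 0.017.

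Among the alpha class GST genes, Gsta3, which in mouse codes for a transferase active toward aflatoxin epoxide, had log2 expression values of 7.07, 6.90 and 7.14 in MetS animals 1 to 3, against 6.77, 7.02, 6.70 and 6.71 in controls 1 to 4. Control 2 lay inside the MetS range and the other 3 controls lay below it. The difference was 0.24 (95% interval 0.0018 to 0.48; limma, unadjusted p = 0.0487, adjusted p = 0.362). Gsta3 was the 1 GST gene past the unadjusted threshold, and leaving out single animals left its p under 0.05 in 2 of 7 cases, with a p of 0.154 when MetS animal 3 was dropped. Its repeat arrays differed by 0.34 in MetS animal 1, more than the group difference, and by 0.073 in control animal 1. With the first array of each animal alone the difference was 0.17 (limma, unadjusted p = 0.139), and with the SD in the fit it was 0.33 (limma, unadjusted p = 0.0561).

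Gsta1 had 11.04, 11.25 and 11.06 in MetS against 11.12, 11.35, 10.98 and 11.07 in controls, with the animals of both groups mixed. Its difference was -0.0086 (95% interval -0.25 to 0.23). Gsta4, the class member known for conjugating the lipid peroxidation product hydroxynonenal, had 11.15, 10.47 and 10.65 in MetS against 11.07, 10.52, 10.97 and 10.40 in controls. Its 2 probes gave differences of 0.018 and 0.027. The interval of the first ran from -0.50 to 0.53, so a change within those bounds is compatible with these values.

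The mu class holds 8 measured genes, all on chromosome 2 of the rat assembly GRCr8, where Gstm3, Gstm2, Gstm1 and Gstm4 follow one another with no other annotated gene between them. Such neighbours are close copies, so probes may take up RNA of more than 1 of them. Gstm2 had 11.14, 10.92 and 10.97 in MetS against 10.79, 10.84, 10.77 and 10.97 in controls. Its 3 MetS animals lay above controls 1 to 3 and around control 4, a difference of 0.17 (95% interval -0.025 to 0.36; limma, unadjusted p = 0.0792). Gstm1 had 11.27, 11.01 and 10.90 in MetS against 11.05, 11.09, 10.81 and 10.90 in controls, with a difference of 0.098 (95% interval -0.16 to 0.36) and overlapping groups.

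Gstm5 varied most between animals within the mu class. It had 8.36, 7.83 and 7.997 in MetS against 8.86, 8.98, 8.05 and 7.95 in controls, where controls 1 and 2 stood above all other animals. The difference of -0.40 had an interval of -1.07 to 0.28. Gstm6 was the 1 GST gene whose groups did not overlap, at 5.14, 5.02 and 4.98 in MetS against 5.16, 5.20, 5.16 and 5.15 in controls. Its difference of -0.12 (limma, unadjusted p = 0.0921) became 0.13 after quantile normalizing the arrays again, so its direction is not settled. The remaining mu genes Gstm3, Gstm4, Gstm6l and Gstm7 differed by -0.075, 0.093, 0.074 and 0.052, each with overlapping groups, and Gstm3 turned to 0.18 after the same normalization.

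The other cytosolic classes also overlapped. Gstp1, the pi class enzyme, had 9.95, 10.01 and 10.13 in MetS against 10.15, 10.19, 9.72 and 9.79 in controls. Its controls fell on both sides of the MetS animals, with a difference of 0.067 (95% interval -0.25 to 0.38). Of the theta class, Gstt2 had 9.95, 10.21 and 10.14 in MetS against 10.13, 10.05, 9.76 and 9.83 in controls, a difference of 0.15 (95% interval -0.11 to 0.42). Gstt1, whose product dehalogenates small solvents, had 8.97, 8.38 and 8.44 in MetS against 8.68, 8.38, 8.16 and 8.59 in controls and differed by 0.14. For both theta genes MetS and control animals were mixed.

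Gsto1, an omega enzyme that also reduces dehydroascorbate, had 11.27, 10.87 and 10.89 in MetS against 11.18, 10.87, 10.90 and 10.97 in controls, a difference of 0.031 (95% interval -0.26 to 0.32). Its relative Gsto2 had 7.43, 7.33 and 7.47 in MetS against 7.52, 7.33, 7.37 and 7.39 in controls and differed by 0.0042. Gstk1, the kappa enzyme of mitochondria and peroxisomes, had 9.63, 9.22 and 9.37 in MetS against 9.30, 9.20, 9.17 and 9.64 in controls and differed by 0.083. In Gsta4, Gstm1, Gstm2, Gstm4, Gstt1, Gsto1 and Mgst1 alike, MetS animal 1 held the highest value of all 7 rats.

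The membrane-bound Mgst1, which both conjugates glutathione and reduces lipid peroxides, had 12.11, 11.96 and 11.78 in MetS against 12.09, 11.92, 11.95 and 12.06 in controls, a difference of -0.055 (95% interval -0.27 to 0.16). Mgst2, which can also form a cysteinyl leukotriene, had 9.94, 9.81 and 9.75 in MetS against 9.96, 9.64, 9.69 and 9.81 in controls, a difference of 0.057 (95% interval -0.17 to 0.28). Neither separated the groups. Over the GST and MGST genes the animal medians, taken against the control mean of each gene, were 0.17, -0.023 and -0.027 in MetS and 0.090, -0.046, -0.086 and -0.012 in controls.

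**Figure D2:**
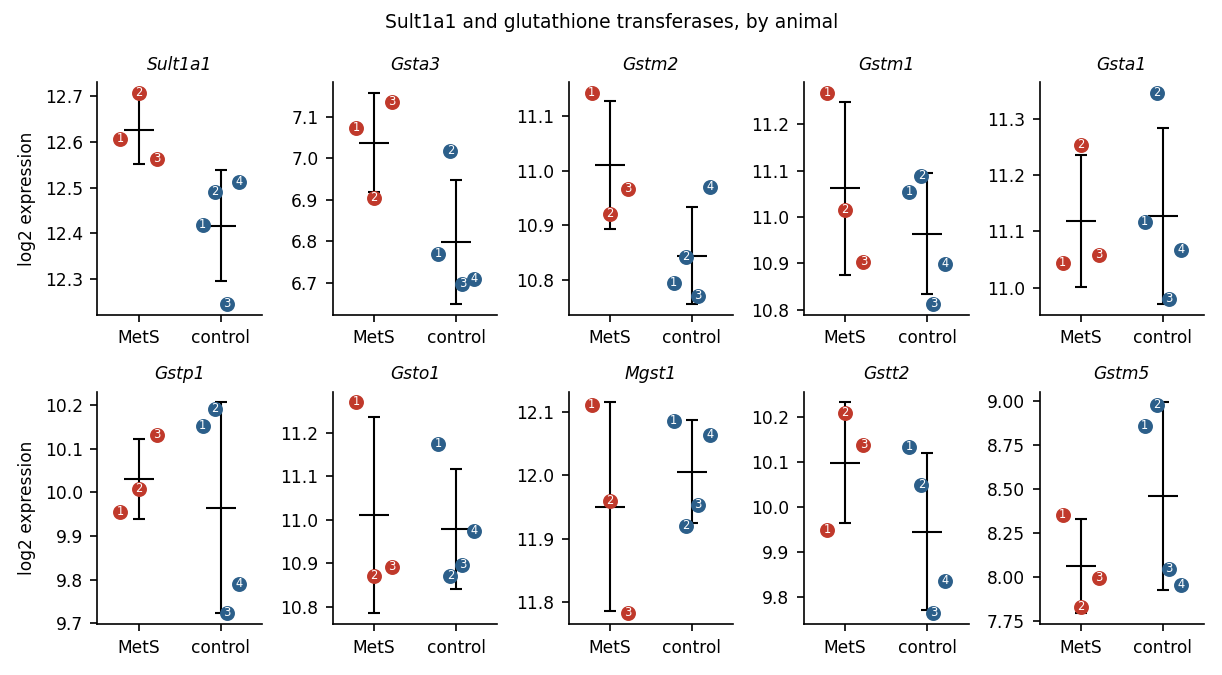
Log2 expression by animal for Sult1a1 and 9 glutathione transferases, with MetS animals in red, controls in blue, the animal number in each point, and the mean with its SD in black. Vertical axes differ between panels and do not start at 0; in Sult1a1 alone of these 10 genes the 3 MetS animals lie above all 4 controls.

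The phenol sulfotransferase Sult1a1 was the other member past the unadjusted threshold upward and the only one of the 38 in which every MetS animal lay above every control. It had 12.61, 12.71 and 12.56 in MetS against 12.42, 12.49, 12.25 and 12.51 in controls. The difference was 0.21 (95% interval 0.014 to 0.40; limma, unadjusted p = 0.0388, adjusted p = 0.348), which is 1.16-fold. Repeat arrays differed for this gene by 0.016 in MetS animal 1 and by 0.014 in control animal 1. Leaving out single animals kept its p under 0.05 in 3 of 7 cases, with a p of 0.13 when MetS animal 2 was dropped, and with the SD of the animals' values in the fit the difference was 0.11.

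Sult1c2, a sulfotransferase of the 1C subfamily, showed the widest difference of all members. It had 5.48, 5.03 and 6.38 in MetS against 8.68, 9.15, 8.61 and 6.36 in controls. Controls 1 to 3 lay at least 2 log2 units above every MetS animal, while control 4 lay level with MetS animal 3. The difference was -2.57 (95% interval -4.15 to -0.99; limma, unadjusted p = 0.00603, adjusted p = 0.324). Leaving out single animals moved it between -3.18 and -2.26, with p under 0.05 in 7 of 7 cases. Sult1c3, which lies near it on chromosome 9 with 1 annotated gene between, had 4.57, 4.69 and 4.75 in MetS against 4.94, 5.40, 5.57 and 4.75 in controls, with control 4 again at the level of MetS animal 3 and a difference of -0.49 (limma, unadjusted p = 0.0393).

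Sult2a2 and Sult2a1 code for hydroxysteroid sulfotransferases, which act on dehydroepiandrosterone and bile acids and whose liver levels are known to differ between male and female rats. Sult2a2 had 5.39, 5.26 and 6.60 in MetS against 7.96, 9.04, 8.66 and 6.52 in controls. Sult2a1 had 5.27, 4.79 and 6.08 in MetS against 6.67, 7.70, 7.63 and 5.43 in controls. In both, controls 1 to 3 lay above all MetS animals, MetS animal 3 was the highest of its group and control 4 fell within the MetS range. The difference of Sult2a2 was -2.30 (95% interval -3.76 to -0.84; limma, unadjusted p = 0.00722), and that of Sult2a1 was -1.48 (95% interval -2.85 to -0.11; limma, unadjusted p = 0.0377). The 2 genes lie close together on chromosome 1 with 1 annotated gene between them and are near copies, so their probes may share RNA.

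Sult1d1, which in rodents sulfates catecholamines, had 5.15, 5.21 and 5.58 in MetS against 6.005, 6.22, 6.36 and 5.53 in controls, a difference of -0.72 (limma, unadjusted p = 0.00939) with control 4 just below MetS animal 3. Sult1b1, which acts on thyroid hormones and phenols, had 4.87, 4.84 and 4.88 in MetS against 5.16, 5.68, 5.40 and 5.02 in controls. All 4 controls lay above the 3 MetS animals, which sat close together, and the difference was -0.45 (95% interval -0.81 to -0.097; limma, unadjusted p = 0.0195).

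The remaining sulfotransferases had overlapping groups and intervals that include 0. Sult2b1, the cholesterol sulfotransferase of epithelia, had 7.25, 7.25 and 7.25 in MetS against 7.26, 7.25, 7.34 and 7.17 in controls and differed by -0.0033 (95% interval -0.14 to 0.14). Sult4a1, an enzyme of brain, had 6.77, 6.78 and 6.78 in MetS against 6.75, 6.80, 6.87 and 6.74 in controls and differed by -0.016. The Sult2b1 value was identical in the 3 MetS animals and control 2, so its small spread is no measure of steady expression. Sult5a1 had 7.63, 7.80 and 7.63 in MetS against 7.65, 7.59, 7.63 and 7.54 in controls, a difference of 0.087, and Sult6b1 had 4.78, 4.86 and 4.81 in MetS against 4.81, 4.86, 5.23 and 4.94 in controls, a difference of -0.14.

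The 8 UGT genes all stood lower in MetS, between -0.99 and -0.086, but after quantile normalizing again Ugt2a3 and Ugt8 stood at 0.16 and 0.050. Of the 8, 4 passed the unadjusted threshold. Ugt2b1, a family 2B enzyme of rat liver, had 5.16, 4.90 and 4.98 in MetS against 5.38, 5.91, 5.75 and 5.47 in controls. Its groups did not overlap, and its p was the smallest of any member, with a difference of -0.62 (95% interval -0.95 to -0.29; limma, unadjusted p = 0.00298, adjusted p = 0.324). Ugt2b had 4.67, 4.69 and 4.65 in MetS against 5.52, 6.28, 6.15 and 4.68 in controls. Here controls 1 to 3 were spread upward from a level shared by all MetS animals and control 4, and the difference was -0.99 (95% interval -1.83 to -0.14; limma, unadjusted p = 0.0282).

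Ugt2b35 had 4.62, 4.51 and 4.64 in MetS against 4.83, 5.16, 5.19 and 4.69 in controls, without overlap and with a difference of -0.38 (limma, unadjusted p = 0.0237). Ugt2b37 had 4.60, 5.03 and 4.94 in MetS against 5.44, 5.81, 5.51 and 4.86 in controls, with control 4 inside the MetS range and a difference of -0.55 (limma, unadjusted p = 0.0406). The other UGT genes had overlapping groups. The olfactory enzyme Ugt2a1 had 5.15, 5.30 and 5.37 in MetS against 5.44, 5.82, 5.65 and 5.18 in controls, a difference of -0.25 (95% interval -0.61 to 0.11). Ugt2b7 had 5.19, 5.27 and 5.68 in MetS against 5.36, 6.18, 5.66 and 5.33 in controls, a difference of -0.25. Ugt8, which makes galactosylceramide for myelin, had 5.84, 6.17 and 6.02 in MetS against 6.05, 6.20, 6.38 and 6.02 in controls, a difference of -0.15, and Ugt2a3 differed by -0.086. With the SD of the animals' values in the fit these 4 stood above 0, at 0.14, 0.25, 0.081 and 0.11.

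Most of the lower genes are neighbours. On chromosome 14 of GRCr8, Sult1d1, Sult1b1, Ugt2a1 and Ugt2a3 lie in a row with no other annotated gene between them, followed by Ugt2b, Ugt2b37, Ugt2b35, Ugt2b7 and Ugt2b1. All 9 of these genes stood lower in MetS, 6 of them at an unadjusted p under 0.05, and their median was -0.45, whereas 8 stood lower after quantile normalizing again, 7 without controls 2 and 3 and 6 with the SD in the fit. All 9 probes lay in the dimmest 25% of the array (a mean under 6.48), with 15 members in all, of which 8 were UGT, 5 SULT and 2 GST genes. Among these dimmest probes of the array 24.5% were lower and 2% higher at an unadjusted p under 0.05, and 75.8% stood lower at any p. Of the 15 members there, 8 were lower and 0 higher at that p and 15 stood lower at any p, against 10 after quantile normalizing again, 13 without controls 2 and 3 and 9 with the SD in the fit. Of the 23 members above it, 2 were lower, Sult1c2 and Sult2a2, and 2 higher, against 5.05% and 4.43% of the probes there. The median was -0.38 over the 15 dim members, against -0.12 over all dim probes, and 0.057 over the other 23, against 0.041 over the brighter probes.

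**Figure D3:**
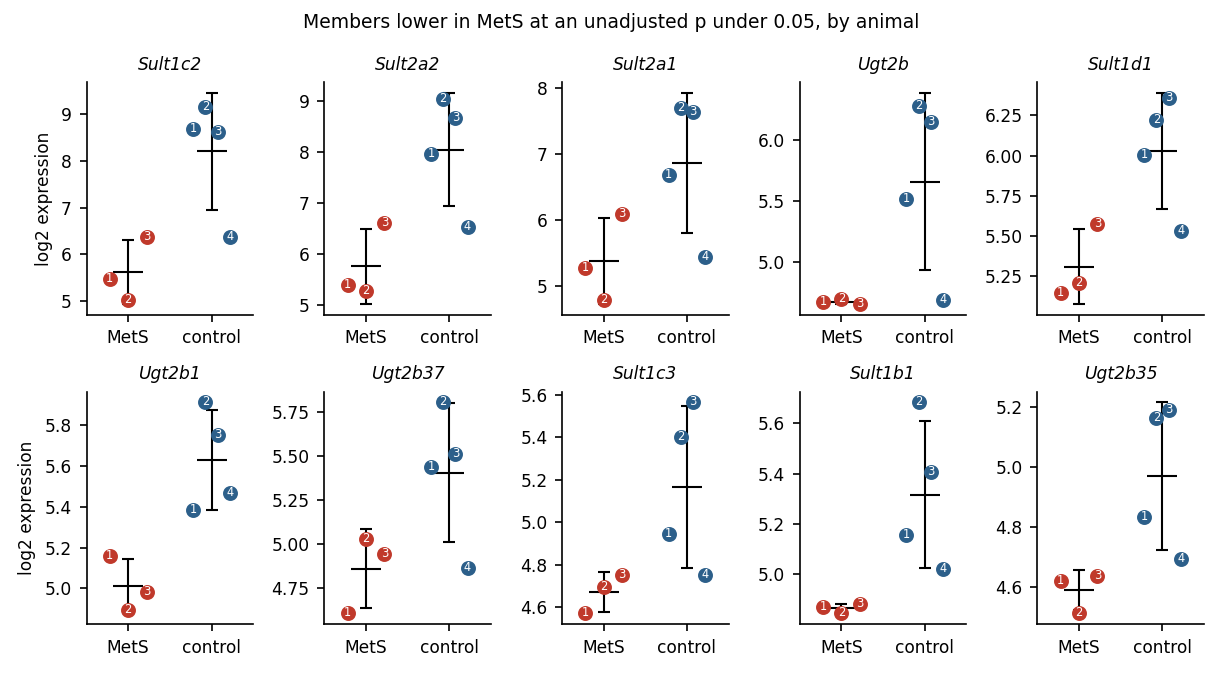
Log2 expression by animal for the 10 members lower in MetS at an unadjusted p under 0.05, with MetS animals in red, controls in blue, the animal number in each point, and the mean with its SD in black. Vertical axes differ between panels and do not start at 0; controls 1 to 3 lie above every MetS animal in all 10 panels, and control 4 lies within or below the MetS range in 7.

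The order of the animals was much the same in these 10 genes. Controls 1 to 3 lay above every MetS animal in 10 of 10, controls 2 and 3 held the 2 highest values in 9, and control 4 was the lowest control in 9 and fell within or below the MetS range in 7. When each of the 7 animals was left out in turn, Sult1c2, Sult1d1, Sult2a2 and Ugt2b1 kept an unadjusted p under 0.05 in 7 of 7 fits and Sult1b1 in 6, without its call when MetS animal 2 was dropped. Ugt2b35 kept it in 3, Sult1c3, Sult2a1 and Ugt2b in 2 and Ugt2b37 in 1. The median of the SULT and UGT genes against the control mean was -0.44, -0.38 and -0.33 in MetS animals and -0.11, 0.24, 0.17 and -0.30 in the 4 controls. The 8 probes that list several genes of the families, left out of all counts above, had animal medians of -0.92, -0.95 and -0.60 in MetS. In controls these were 0.0026, 0.47, 0.099 and -0.50. Of the 8, 5 (62.5%) were lower and 0 higher at an unadjusted p under 0.05, against 9.91% and 3.82% of all probes.

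The same order appeared in the spread of each animal's values over all probes. That SD was 1.93, 1.90 and 1.88 for MetS animals 1 to 3 and 1.85, 1.77, 1.76 and 1.88 for controls 1 to 4, so that controls 2 and 3 had the narrowest spread and control 4 matched MetS animal 3. With this SD as a term in the fit 0 of the 38 members had an unadjusted p under 0.05, where 1.68% of all probes were higher and 1.87% lower (limma, smallest adjusted p among the members 0.999). Gsta3 was wider than without the term, as given above, and Sult1a1 narrower. All 10 lower differences then shrank by over 1.5 times. Sult1c2 stood at -1.11 (limma, unadjusted p = 0.141), Sult2a2 at -0.70 and Ugt2b1 at -0.38. Sult1d1 stood at -0.19, Sult1b1 at -0.11, Ugt2b at -0.072, Ugt2b35 at -0.057 and Ugt2b37 at -0.038, and 2 turned sign, Sult1c3 at 0.038 and Sult2a1 at 0.017. Control 4 was the only control within the MetS range of this SD. The SD was computed from the same expression values and mostly follows the group. A difference that shrank with the SD in the fit therefore cannot be assigned to spread or to group.

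**Figure D4:**
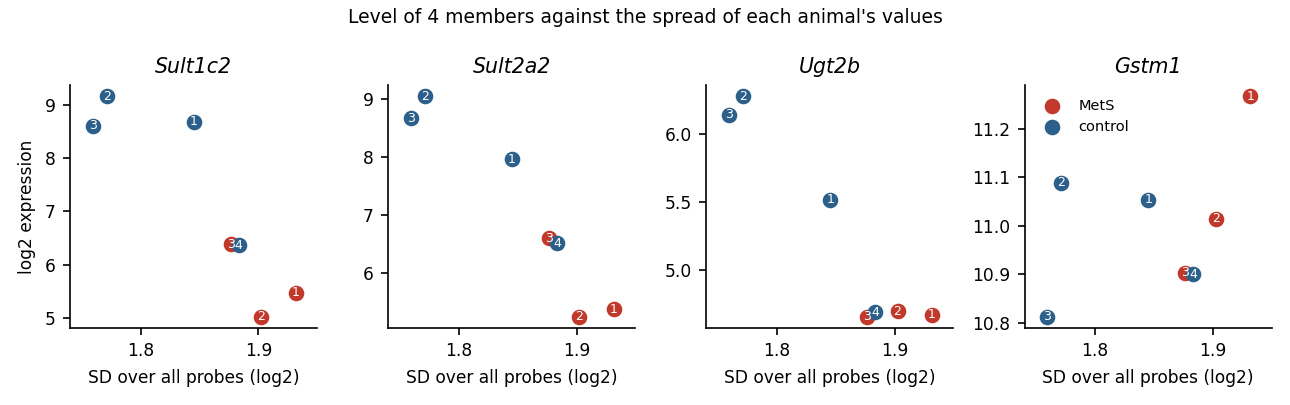
Log2 expression of Sult1c2, Sult2a2, Ugt2b and Gstm1 on the vertical axis against the SD of each animal's values over all probes on the horizontal axis, with MetS animals in red, controls in blue and the animal number in each point. The 2 sulfotransferases stand highest in controls 1 to 3 at the narrow end and lie together for MetS animal 3 and control 4, whereas Gstm1 has no such order; vertical axes differ and do not start at 0.

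With controls 2 and 3 left out all 10 lower differences stayed below 0 but 8 shrank by over 1.5 times, and 2 members were lower and 1 higher at an unadjusted p under 0.05, against 3.81% and 1.43% of all probes. Sult1c2 was then at -1.89 (limma, unadjusted p = 0.0599) and Sult2a2 at -1.49 (limma, unadjusted p = 0.0557). The 2 that kept a p under 0.05 were Ugt2b1 at -0.41 (limma, unadjusted p = 0.00778) and Sult1b1 at -0.23 (limma, unadjusted p = 0.0189). After quantile normalizing again Ugt2b1 stood at -0.37 (limma, unadjusted p = 0.0114) and Sult1b1 at -0.20 (limma, unadjusted p = 0.0887). Sult1c3, Ugt2b35 and Ugt2b37 also lost their call under that normalization. Repeat arrays of an animal differed by a median of 0.061 in MetS animal 1 and 0.081 in control animal 1 over the 38 genes, and the widest such gaps were 0.44 for Sult2a1 and 0.46 for Sult1d1. The pooled SD between animals had a median of 0.18 and reached 1.06 for Sult1c2, whose repeat arrays differed by 0.29 in MetS animal 1 and 0.26 in control animal 1.

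The sequence just before the annotated start is shown for Sult1c2, Sult2a2 and Ugt2b, which had the widest differences of their subfamilies, and for Gstp1, a glutathione transferase whose groups were mixed. RefSeq (GRCr8) gave promoters for 32 of the 38 genes. The 120 bases before the start are printed 5′ to 3′ on the gene's strand. Capitals mark matches to the motifs searched on both strands, which were the antioxidant response core TGACNNNGC, an HNF1-type site GTTAATNAT and TATAAA, none overlapping another in the stretches shown.
Sult1c2, chr9:7436861-7436980, plus strand: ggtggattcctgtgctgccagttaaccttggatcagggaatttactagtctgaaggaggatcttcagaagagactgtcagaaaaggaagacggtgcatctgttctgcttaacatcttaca
Sult2a2, chr1:85104533-85104652, minus strand: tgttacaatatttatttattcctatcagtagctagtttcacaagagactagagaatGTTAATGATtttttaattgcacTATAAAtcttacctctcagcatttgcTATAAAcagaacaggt
Ugt2b, chr14:20985329-20985448, plus strand: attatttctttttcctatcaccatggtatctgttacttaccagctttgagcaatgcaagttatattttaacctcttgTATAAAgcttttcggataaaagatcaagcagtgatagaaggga
Gstp1, chr1:210769706-210769825, minus strand: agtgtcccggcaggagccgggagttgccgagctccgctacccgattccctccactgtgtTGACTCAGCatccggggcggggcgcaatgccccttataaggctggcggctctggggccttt

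The Sult2a2 stretch holds the HNF1-type match, 64 bases before the start, and 2 matches to TATAAA. Sult2a2 was the 1 of 32 member genes with the HNF1-type letters in the 250 bases searched, which 0.666% of all promoters hold. The Gstp1 stretch holds the antioxidant response core, 61 bases before the start. In the same window 4 of 32 member genes hold that core, Gsta3, Gstm5, Gstm7 and Gstp1, against 10.1% of all promoters. TATAAA was found in 8 of 32 member genes, Gsta1, Gstm1, Gstm3, Gstm5, Sult1d1, Sult2a1, Sult2a2 and Ugt2b, against 12.9% of all promoters, and Sult1c2 had a match to none of the 3. These are matches of letters and show no binding.

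Genes that supply or follow conjugation were taken from textbook lists. Of 13 genes of glutathione supply, 0 had an unadjusted p under 0.05, with a median difference of 0.050. Gclc, the catalytic subunit of the first step of glutathione synthesis, differed by 0.018, and its modifier subunit gene Gclm by 0.19 (95% interval -0.060 to 0.43). Of 8 genes of UDP-glucuronate supply and removal 0 passed, with a median of 0.091 and Ugdh, the dehydrogenase that makes UDP-glucuronate, at 0.10. Of 12 measured genes of sulfate donor supply and sulfate removal 0 passed, with a median of 0.10, and the PAPS synthases Papss1 and Papss2 stood at 0.11 and 0.18. Of 10 conjugate export pumps 0 passed and of 17 regulators 0 passed, with medians of -0.016 and 0.032. Nfe2l2, the transcription factor that acts on antioxidant response elements, stood at -0.019 (95% interval -0.17 to 0.13).

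Among 14 measured genes of other conjugating and detoxifying enzymes, 4 were lower (28.6%) at an unadjusted p under 0.05 and 0 higher, where 9.91% and 3.82% of all probes were. Hnmt and Acsm3 lay in the dimmest 25%, where 24.5% were lower. Hnmt, which methylates histamine, had 4.58, 4.47 and 4.99 in MetS against 5.20, 5.66, 5.68 and 4.99 in controls. That is the order of animals seen in the sulfotransferases, with a difference of -0.70 (limma, unadjusted p = 0.011) that was -0.17 with the SD in the fit (limma, unadjusted p = 0.247). Acsm3, an acyl-CoA synthetase, stood at -0.24 without overlap (limma, unadjusted p = 0.0397), but at -0.0041 after quantile normalizing again and -0.037 with the SD in the fit. Inmt, which methylates indole amines and is abundant in lung, stood at -0.28 (limma, unadjusted p = 0.0488) and at -0.37 with the SD in the fit (limma, unadjusted p = 0.0699). The groups also did not overlap for Glyat, which joins glycine to acyl groups, at -0.45 (limma, unadjusted p = 0.0527; 0.056 with the SD in the fit), and for Ephx1, the microsomal epoxide hydrolase, at 0.064 (limma, unadjusted p = 0.253). The quinone reductase gene Nqo2 had 9.95, 8.75 and 8.94 in MetS against 9.87, 9.84, 10.04 and 10.02 in controls. MetS animals 2 and 3 lay below all other animals and MetS animal 1 among the controls, with a difference of -0.73 (limma, unadjusted p = 0.0288). The Nqo2 difference was -0.95 with the SD in the fit (limma, unadjusted p = 0.0454). Without controls 2 and 3 it was -0.73 (limma, unadjusted p = 0.112). Its relative Nqo1, a classic antioxidant response gene, differed by 0.012. None passed over all probes (limma, smallest adjusted p 0.324).

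The surfactant gene Sftpc, which defines alveolar type 2 cells, lay between 13.88 and 13.91 in every animal, and the other markers of alveolar type 1 and type 2 cells also lay above the array medians. Not every lung marker did: Bpifa1 of the secretory list was among the dimmest 25% of probes, and the macrophage gene Marco lay below the array medians. Of 8 measured airway secretory markers, with a median difference of -0.043, 1 was lower at an unadjusted p under 0.05 (12.5%, against 9.91% of all probes), Scgb3a1, at 10.35, 10.29 and 9.90 in MetS against 11.70, 12.47, 11.44 and 10.27 in controls. The mean of that list lay between 10.12 and 10.31 in MetS and between 10.01 and 10.70 in controls. Scgb3a1 was high in controls 1 to 3 and low in control 4, as Sult1c2 and Sult2a2 were, and its difference of -1.29 was -0.53 with the SD in the fit. The other secretory markers differed less, with Aldh1a1 at 0.18, Scgb3a2 at 0.066, Cyp4b1 at 0.0028, Scgb1a1 at -0.027, Krt15 without overlap at -0.059, Bpifa1 at -0.14 and Cyp2f4 at -0.31, none past an unadjusted p of 0.05. The part of secretory cells in the sulfotransferase values was not tested. Of 8 liver markers 0 passed, with 2 higher, 6 lower and a median of -0.065. Their list mean lay between 6.63 and 6.68 in MetS and between 6.65 and 6.86 in controls. The dim albumin gene Alb stood at 5.72, 5.77 and 5.83 in MetS against 5.89, 6.32, 6.28 and 5.76 in controls. The Alb difference of -0.29 was 0.097 with the SD in the fit and -0.073 after quantile normalizing again. Apoc3 and Ttr stood higher, at 0.14 and 0.0095. Of 5 kidney and gut markers 1 was lower (20%, against 9.91% of all probes), the dim Fabp2, at -0.43 (limma, unadjusted p = 0.0249). It stood at -0.098 with the SD in the fit and -0.18 after quantile normalizing again, each with its call lost. Lists of 6 ciliated, 6 alveolar type 2, 5 alveolar type 1, 4 macrophage, 4 endothelial and 4 olfactory lining markers had 0 genes past that threshold, with medians between -0.026 and 0.17.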

How the data were processed

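The authors deposited log2 expression values, 1 column per array. Per the submitters' processing notes, R 2.11.0, RMA and limma were used, with no role stated; RMA as generally used corrects background, quantile normalizes and summarises on the log2 scale, which compresses dim and very bright probes. The genome build was not stated. Arrays of the same animal were averaged, and MetS was compared with control over 7 animals by lmFit and eBayes of limma 3.58.1 (R 4.3.3, 7.28 degrees of freedom), fitted on all 28826 probes without a filter on low values and Benjamini-Hochberg adjusted over all of them. The fit was tested on simulated data. Each p-value sets the group difference against the spread between these animals, which limma moderates over all probes.

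Probes were named by the platform table where it gives 1 symbol (15209 probes; 306 had several, 13311 none). The 38 members had 39 probes, and the probe with the highest mean stood for Gsta4. All 38 matched a RefSeq identifier. The members and lists were chosen with earlier results of these data known. Values by animal are given for members with an unadjusted p under 0.05 or no overlap and for the 2 brightest of each subfamily; Gstm5, Glyat, Ephx1 and the secretory markers beyond Scgb3a1 and Krt15 were added after their values were seen. From each fixed list up to 4 genes by the first rule are named, and Gclc, Gclm, Ugdh, Papss1, Papss2, Nfe2l2, Nqo1, Sftpc and Alb for their role. Levels are not compared between genes, since probes differ in response. Figures were drawn with matplotlib 3.10.9, tables with pandas 2.3.3 in Python 3.11.15.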

Additional observations from a re-analysis of the deposited data

How the results depend on the processing

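Of 21 alternatives, centring each array, only probes with 1 symbol, trended and robust moderation, array weights, updated symbols and the mean over a gene's probes moved no count of members by over 1.5 times. The 10 lower members became 6 after quantile normalizing again, 0 with the SD in the fit, 2 without the dimmest 25% of probes (which removes 15 members), 2 without controls 2 and 3 and 4 at an unadjusted p under 0.01. Leaving out 1 animal at a time gave 4 to 11. After quantile normalizing again the 6 lower members were 15.8%, where 6.91% of all probes were lower and 8.02% higher. The 2 higher members became 1 with the first array of each animal, with all 9 arrays and the animal as a random block, with the replicate block and without controls 2 and 3, and 0 with the SD in the fit or at p under 0.01. Leaving out 1 animal gave 0 to 2. Members without overlap became 4 higher and 1 lower after quantile normalizing again, 3 higher without controls 2 and 3 and 0 lower without the dimmest 25%, and with 1 animal left out 1 to 2 higher and 4 to 12 lower. The median over the members was -0.036, against 0.057 without the dimmest 25%, which removes genes that all stood lower, 0.0020 after quantile normalizing again and -0.096 to -0.021 with 1 animal left out (lowest without MetS animal 1). Sult1c3 turned to 0.038 and Sult2a1 to 0.017 with the SD in the fit; the cause was not tested. Settings that change the fit alone give no count of overlap, and leaving out animals can only hold or raise such a count. Beyond those printed here and above, shares over all probes are not given for these settings.

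Deviations of same-numbered animals correlated at 0.271, -0.118 and 0.339, and those of differently numbered animals at -0.421 to 0.385. These correlations do not settle whether the replicate numbers pair the animals. With the replicate block, which gives control 4 a term of its own, 2017 of 28826 probes passed an adjusted p of 0.05 in limma. Of these, 1879 were lower. Of the 38 members 7 passed, all lower (Sult1c2, Sult1c3, Sult1d1, Sult2a1, Sult2a2, Ugt2b and Ugt2b37). Dim probes limit what the UGT values can show.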
